A study of Mus musculus with 11 samples.

Results

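Mylpf, Cela1 and Clca1 are 3 of the 1767 genes in the deposited RNA-seq table of mouse striatal cells, and each had higher counts in every NF-Y knockdown sample than in any control sample. They were taken by gene symbol as genes known mainly from skeletal muscle, pancreas and mucosa that rose after the knockdown. The counts of this same contrast chose them, so their levels and fold changes are given below as a description and without p-values. Wild-type male B6 mice (strain C57BL/6) were injected at 6 weeks of age into the striatum of both hemispheres with an AAV vector, and their striata were collected after another 3 weeks. The 6 NT2 samples received a vector for EmGFP and a non-targeting miRNA, and the 5 YAYC samples a vector for EmGFP and miRNAs against NF-YA and NF-YC. Both vectors used the CAG promoter, which is active in many cell types, and EmGFP-positive cells were sorted from the dissociated striata. The sort itself selected cells by EmGFP and by exclusion of a dead-cell dye, not by a neuronal marker.

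The proteins of the 3 genes work in different tissues. Mylpf encodes the phosphorylatable regulatory light chain of fast skeletal muscle myosin, which binds the neck of the myosin heavy chain in the sarcomere. Cela1 encodes a chymotrypsin-like elastase, a serine protease that is made as an inactive precursor and is best known from pancreatic juice. The Clca genes encode regulators of calcium-activated chloride conductance, several of which are known from secretory epithelia. NF-Y, the factor that was knocked down, binds the CCAAT motif in proximal promoters as a complex of several different subunits. The striatum consists mostly of inhibitory projection neurons, with glia and blood vessels.

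The Clca1 row is not the gene that is called Clca1 today. It carries Entrez ID 12722 and Ensembl ID ENSMUSG00000056025, and both belong to Clca3a1 in the GRCm38 annotation of RefSeq and in GENCODE M21, where Clca1 is an older name of it. The present Clca1, a mucin-secretion gene of goblet cells, has Entrez ID 23844 and was not analysed here. The label of a mucosal gene thus rests on the symbol, and the row is called Clca1 below only as the table spells it. In the coordinates of the table, for which the submitters' processing notes name mm9, the row spans chromosome 3 from 144393280 to 144482458 on the minus strand, or 89179 bases. Clca3a1 spans 31301 bases in GENCODE M21. The longer span of the table encloses a second listed gene, Clca2 (Entrez ID 80797, now Clca3a2), which lies from 144459523 to 144482458 on the same strand and shares its end coordinate. Mylpf lies on chromosome 7 from 134355122 to 134357801 on the plus strand, and Cela1 on chromosome 15 from 100504853 to 100518351 on the minus strand. The symbols of both are unchanged in the newer annotations.

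Because the study is about a CCAAT-binding factor, the proximal promoters of the genes are shown, from 250 bases before to 50 bases after the start site. They were taken from RefSeq on GRCm38.p6, 5′ to 3′ on the strand of the gene, with each CCAAT or TATAA in capitals. The windows lie at chr7:127211358-127211657 (plus strand), chr15:100687871-100688170 (minus strand) and chr3:144760928-144761227 (minus strand) in the order given.
Mylpf: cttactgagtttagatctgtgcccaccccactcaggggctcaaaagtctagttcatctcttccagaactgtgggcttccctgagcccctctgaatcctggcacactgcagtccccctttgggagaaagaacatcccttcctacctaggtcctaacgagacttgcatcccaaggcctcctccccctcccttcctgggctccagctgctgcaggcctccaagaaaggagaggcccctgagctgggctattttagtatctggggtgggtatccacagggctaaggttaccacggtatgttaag
Cela1: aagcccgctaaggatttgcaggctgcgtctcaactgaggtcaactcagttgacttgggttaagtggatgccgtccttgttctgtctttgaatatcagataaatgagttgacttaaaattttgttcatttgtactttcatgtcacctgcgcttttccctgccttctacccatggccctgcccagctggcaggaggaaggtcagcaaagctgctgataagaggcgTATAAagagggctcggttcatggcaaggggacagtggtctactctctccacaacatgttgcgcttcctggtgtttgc
Clca3a1 (the Clca1 row): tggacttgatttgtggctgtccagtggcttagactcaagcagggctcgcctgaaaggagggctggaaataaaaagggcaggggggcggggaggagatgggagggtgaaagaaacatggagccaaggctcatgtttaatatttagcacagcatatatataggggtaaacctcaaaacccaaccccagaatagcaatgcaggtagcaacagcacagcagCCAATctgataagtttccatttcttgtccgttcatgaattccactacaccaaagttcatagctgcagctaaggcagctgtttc
CCAAT, searched on both strands, was found in the promoter of Clca3a1 alone among the 3, with its first base 33 bases before the start site and on the strand of the gene. Of 32851 mouse promoters of the same length, 37.4% hold it. TATAA, also searched on both strands, was found in Cela1 alone among the 3, beginning 27 bases before the start site, against 24.9% of all promoters. CANNTG, the E-box core that muscle and pancreatic helix-loop-helix factors recognise, occurred 5 times in the Cela1 window and 1 time in each of the other windows, and 72.3% of all promoters hold it at least once. The Mylpf window is set on a start site 2718 bases inside the outermost start of the gene in GENCODE M21. The Clca3a1 window is set on the start of Clca3a1 in GENCODE M21. On the minus strand, the longer span of the Clca1 row starts at 144482458 in the table, as Clca2 does. No window at that start is shown, so the CCAAT is that of Clca3a1 and not of the row's outermost start. These matches describe the letters of the windows only.

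The sum of the estimated counts per sample lay between 1581757 and 3141324. These are sums over listed genes and not library depths. Nfyc, the only targeted gene in the table, had normalized counts of 733 to 1206 with a median of 898 in the 6 NT2 samples, and of 975, 840, 887, 603 and 722 in the YAYC samples 4, 6, 8, 10 and 22. The groups overlapped. The log2 fold change was -0.19 (standard error 0.15) and was not called, but with the scaling of the authors it was -0.32 (standard error 0.14) and was called lower. Counts of several glial and vascular markers were lower in the knockdown samples, in a table in which 25.9% of all genes were called lower. Of 12 astrocyte markers 5 were in the table, all 5 were called lower after the knockdown, and their summed normalized count was 24499 to 73107 in NT2 and 13746 to 31683 in YAYC samples. Of 13 vascular markers 7 were in the table and 6 were called lower, with sums of 6653 to 10823 and 4497 to 7894. The only listed markers of oligodendrocytes (Ugt8a, 9979 to 20617 against 10136 to 11871) and microglia (P2ry12, 13336 to 25660 against 12841 to 16015) had log2 fold changes of -0.50 and -0.35, and the first was called lower. The 3 haemoglobin genes among 10 blood markers were called lower as well, with sums of 1079 to 2124 against 542 to 1452. No marker of neurons in general or of striatal projection neurons was among the listed genes, so the labelled cell type could not be checked on them. The part that these marker differences had in the values below was not tested. A fit with a glial marker score is given below, but it cannot separate marker differences from the knockdown. Fewer cells of a type and less RNA per cell cannot be told apart in such samples.

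Mylpf was low in the control samples and several times higher in every knockdown sample. Its estimated counts were 25, 39, 82, 68, 58 and 41 in the NT2 samples 3, 5, 7, 9, 21 and 23, and 268, 316, 176, 473 and 287 in the YAYC samples 4, 6, 8, 10 and 22. After TMM scaling, which corrects for the size and composition of each library, the normalized counts were 38.7, 40.4, 71.0, 55.0, 47.0 and 38.4 in NT2 and 334, 333, 216, 421 and 234 in YAYC samples. The lowest knockdown sample, number 8, was 3.05 times the highest control sample, number 7. The mean rose from 48.4 ± 12.7 (SD, n = 6) to 308 ± 83.6 (SD, n = 5), which is 6.35-fold. On the log2 scale edgeR gave 2.66 (standard error 0.24). The spread was alike in both groups in relative terms, with a coefficient of variation of 26.3% in NT2 and 27.2% in YAYC samples.

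Cela1 had the highest level of the 3 genes in the controls and the smallest relative rise. Its estimated counts were 251, 205, 377, 360, 302 and 340 in the NT2 samples 3, 5, 7, 9, 21 and 23. In the YAYC samples 4, 6, 8, 10 and 22 they were 859, 713, 580, 1182.5 and 943. The normalized counts were 389, 213, 326, 291, 245 and 319 in NT2 and 1069, 752, 713, 1053 and 768 in YAYC samples, so that samples 4 and 10 stood above the other knockdown samples. No knockdown sample came near the controls, since the lowest was 1.83 times the highest NT2 sample, number 3. The mean went from 297 ± 62.8 (SD, n = 6) to 871 ± 175 (SD, n = 5), a 2.93-fold difference, or 1.55 on the log2 scale (standard error 0.17). The coefficient of variation, 21.1% in NT2 samples, was the smallest of the 3 genes in both groups.

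The Clca1 row had the largest fold change and the least even controls. Its estimated counts were 12, 12.5, 0, 69.5, 53.8 and 35.2 in the NT2 samples 3, 5, 7, 9, 21 and 23, and a count of 0 allows up to 3 counts. In the YAYC samples 4, 6, 8, 10 and 22 they were 665, 541, 475, 440 and 467. The normalized counts were 18.6, 12.96, 0, 56.2, 43.6 and 32.9 in NT2 and 827, 571, 585, 392 and 380 in YAYC samples. Sample 4 was the highest of the knockdown samples, and the lowest, number 22, was 6.76 times the highest control sample, number 9. The mean was 27.4 ± 20.8 (SD, n = 6) in NT2 and 551 ± 182 (SD, n = 5) in YAYC samples, 20.1-fold higher, with a log2 fold change of 4.30 (standard error 0.59). The coefficient of variation was 75.9% in NT2 and 33.0% in YAYC samples.

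**Figure D1:**
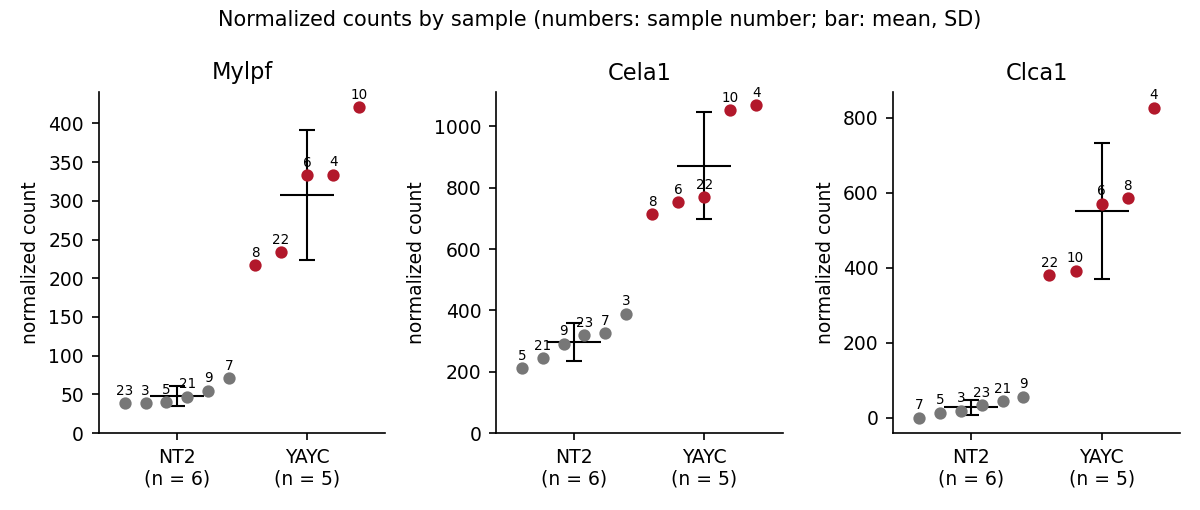
Normalized counts (vertical axes, linear) of Mylpf, Cela1 and the Clca1 row in the 6 NT2 and 5 YAYC samples, ordered by value within each group and labelled with the sample number, with the mean and SD as black bars. The 2 groups do not overlap in any panel, and the lowest YAYC sample lies 3.05, 1.83 and 6.76 times above the highest NT2 sample in the order of the panels.

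All 3 genes were called up-regulated, which here means a p-value below 0.05 before adjustment in edgeR's quasi-likelihood test together with a change of more than 1.2-fold, as were 40.7% of the 1767 listed genes, and 25.9% were called down-regulated. Every knockdown sample exceeded every control sample in all 3 genes and in 11.4% of the listed genes, and the reverse held in 2.43%. Since the table holds only genes that the authors had selected on this contrast, and since the 3 were picked for their rise, nothing is read from these counts. By log2 fold change Clca1 ranked 12, Mylpf 39 and Cela1 164 among the 1767 genes, whose median log2 fold change was -0.13.

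Fractional counts were more frequent in the Clca1 row than in Mylpf and Cela1. How the authors' software arrived at fractions is not given in the sources used here. With counts taken as whole only within 1e-06, 3 of 11 Mylpf counts, 4 of 11 Cela1 counts and 9 of 11 Clca1 counts were fractional (27.3%, 36.4% and 81.8%), against 53.6% of all 19437 counts in the table. Most of the Mylpf and Cela1 cases were of the kind of 473.00024, and with a tolerance of 0.05 no Mylpf count and 1 Cela1 count (1182.5, in YAYC sample 10) remained fractional. Clca1 still had 8 of 11 (72.7%), 4 in each group, against 43.7% of all counts. At that tolerance 476 of the 1767 genes (26.9%) were whole in every sample, as Mylpf was, and 604 (34.2%) were fractional in at least as many samples as Clca1. The fractional parts of Clca1 were simple. The NT2 counts of 53.833 and 35.167 are multiples of 1/6, the YAYC counts of 664.583, 440.083 and 466.583 are multiples of 1/12, and the YAYC count of 475.333 is a multiple of 1/3, each within 0.001.

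The annotated transcripts of Clca3a1 also shared sequence with other genes. Reads were 50 bases long, and of the 1057 different windows of 50 bases in the GENCODE M21 transcripts of Mylpf none occurred in a transcript of another gene on either strand. None of the 2294 windows of Cela1 did so either. Of the 3896 windows of Clca3a1, 1045 (26.8%) did. Clca3a2 held 864 of them (22.2% of all windows), Clca3b 130 and the overlapping antisense gene Gm34866 122, and a window could be shared with several genes. The longest coding transcripts of Clca3a1 (3524 bases) and Clca3a2 (3654 bases) were identical in 88.3% of 3752 aligned positions. The values of the Clca1 row are therefore uncertain, since reads of Clca3a1 and Clca3a2 could have been exchanged between the rows. The search covered annotated transcripts and not the rest of the genome, and Cela1 had 1 fractional count although it shared no window.

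The 2 rows nevertheless moved by different amounts. The normalized counts of Clca2 were 38.5, 57.9, 27.2, 58.5, 54.5 and 62.8 in the NT2 samples 3, 5, 7, 9, 21 and 23, and 109, 66.7, 114, 91.0 and 97.5 in the YAYC samples 4, 6, 8, 10 and 22. The groups were barely apart, as the lowest knockdown sample was 1.06 times the highest control sample. The log2 fold change of Clca2 was 0.93 (standard error 0.26), and 10 of its 11 counts were fractional at a tolerance of 0.05. The Clca1 row took 0% to 49.0% of the counts of the pair in NT2 samples, with a median of 33.5%, and 79.6% to 89.5% in YAYC samples, with a median of 83.7%. Added together, the rows reached 77.3 ± 32.1 normalized counts in NT2 (SD, n = 6) and 646 ± 188 in YAYC samples (SD, n = 5). The log2 fold change of the sum was 3.06 (standard error 0.32), against 4.30 for the Clca1 row by itself. If no read was counted in both rows, which was not checked, the sum does not depend on how reads were divided within the pair. Reads shared with other genes remain in the sum.

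**Figure D2:**
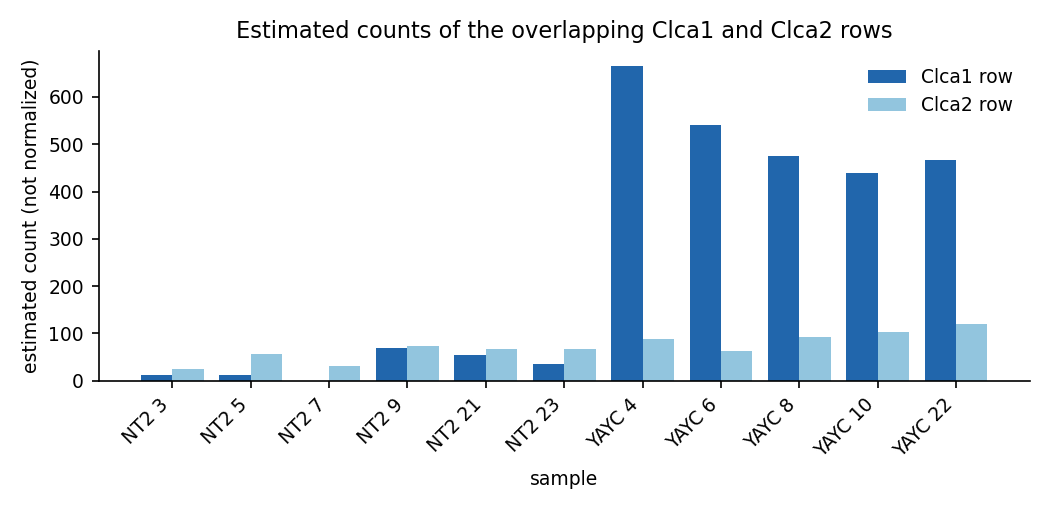
Estimated counts, not normalized, of the overlapping Clca1 row (dark bars) and Clca2 row (light bars) in each of the 11 samples. Clca1 lies at or below 69.5 in the NT2 samples and at 440 or more in the YAYC samples, while Clca2 stays between 24.8 and 120 in all samples.

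Levels were compared between genes only per length, as normalized counts per kb of the longest coding transcript in GENCODE M21. In NT2 samples the level was 268 ± 56.7 for Cela1, 63.2 ± 16.6 for Mylpf and 7.77 ± 5.90 for Clca1 (SD, n = 6). In YAYC samples it was 786 ± 158, 402 ± 109 and 156 ± 51.6 in the same order (SD, n = 5). The order was thus the same in both groups, and the ranges of the 3 genes did not overlap in either. In NT2 samples they ran from 192 to 351 for Cela1, from 50.2 to 92.6 for Mylpf and from 0 to 16.0 for Clca1. In YAYC samples they ran from 644 to 965, from 283 to 550 and from 108 to 235. The value of Clca1 assumes the length of Clca3a1 (3524 bases), which is not the gene model of the table.

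The 3 genes did not rank the knockdown samples alike. Sample 4 was highest for Cela1 and Clca1 and sample 10 for Mylpf, whereas sample 10 was the lowest but 1 for Clca1. After each group's mean had been subtracted, Pearson's r over the 11 samples was 0.39 between Mylpf and Cela1, -0.45 between Mylpf and Clca1 and -0.14 between Cela1 and Clca1. These correlations are descriptions over samples that share their libraries and scaling. The genes most like Mylpf on this within-group scale were Ttc9 (r = 0.83), Mdga2 (0.82), Asgr1 (0.81), Ptdss2 (0.78) and Acyp2 (0.77). Asgr1 had at most 6 counts in any sample, and Mdga2 and Ptdss2 were not called changed. Those most like Cela1 were Atxn1l, March10, Prkcsh, Rdh12 and Plvap, with r from 0.80 to 0.81. All of them were called up-regulated, as were 40.7% of all listed genes. Those most like Clca1 were Mmab (0.90), LOC100503615 (0.87), BC006779 (0.86), Mir680-2 (0.86) and Mbnl3 (0.82), of which Mmab was called down-regulated and Mir680-2 had at most 5.5 counts. Most of the within-group pattern of Clca1 is that of control samples with few counts.

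With the group difference left in, the closest genes were called up-regulated except LOC100503615, against 40.7% of all listed genes. For Mylpf they were Syt4, a synaptotagmin of neurons, with r = 0.96, Pdgfa, a growth factor (0.95), and Nol3 (0.95). For Cela1 they were Gnptg, a subunit of the enzyme that tags lysosomal hydrolases (0.96), Pdgfa (0.96) and Nol3 (0.96). For Clca1 they were the interferon-induced genes Mx1 (0.94) and Oasl1 (0.94) and LOC100503615 (0.94). Such a correlation over 6 and 5 samples mostly repeats the difference between the groups by which all listed genes were selected. Mx1 had 732 ± 286 normalized counts in NT2 and 2263 ± 449 in YAYC samples, and Oasl1 had 624 ± 350 and 3020 ± 964 (SD, n = 6 and 5).

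The surroundings of the 3 genes are thinly covered by the table. For Mylpf, the nearest listed gene, 2900092E17Rik, lies 194256 bases to the left, had 0.25 on the log2 scale (standard error 0.09) and was not called, and no listed gene lies within 1000000 bases to the right. Sept1, which lies 149 bases from Mylpf on the opposite strand in GENCODE M21, and Tbc1d10b, 422 bases away, were not analysed here. Nearest to Cela1 lie I730030J21Rik, 42743 bases to the right, and Dip2b, 454949 bases to the left. I730030J21Rik was low but called up-regulated, at 10.5 ± 5.24 (SD, n = 6) against 30.8 ± 15.1 (SD, n = 5) normalized counts, whereas Dip2b, at -0.26 on the log2 scale (standard error 0.14), was not called. Galnt6 and Bin2, which lie 3892 and 4868 bases from Cela1 on the same strand in GENCODE M21, were not analysed here. The listed neighbour of Clca1 is the enclosed Clca2.

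The direction was the same under every setting, as could be foreseen for genes picked for their rise with groups that did not overlap. The size of the rise varied most for Clca1. With the scaling that the authors had used, recovered from their log2 values, the log2 fold change was 2.51 for Mylpf, 1.42 for Cela1 and 4.16 for Clca1, while the listed genes as a whole shifted by a median of -0.13. The same scaling turned 720 up-regulated and 457 down-regulated genes into 605 and 832. When the glial marker score entered the fit, Cela1 was 1.23 (standard error 0.20), Mylpf 2.73 (standard error 0.37) and Clca1 3.96 (standard error 0.85). The score ran from -0.95 to -0.07 in YAYC and from -0.51 to 1.15 in NT2 samples. It is made of genes selected on this contrast, so marker differences and the knockdown cannot be told apart in this fit. The sample numbers run from 3 to 10 and from 21 to 23, and the labels do not say what the numbers stand for. In the samples numbered 3 to 10 alone, 4 per group, the values were 2.66, 1.56 and 4.71. As a difference of mean log2(normalized count + 0.5), Clca1 was 5.96 in these samples and 3.31 in samples 21 to 23, of which only 1 is a YAYC sample, whereas Mylpf was 2.66 and 2.45 and Cela1 1.56 and 1.46. With each sample left out in turn, they ran from 2.52 to 2.80 for Mylpf, from 1.47 to 1.64 for Cela1 and from 4.03 to 4.66 for Clca1. The control sample without any Clca1 count decided the value on a log scale without a count model, where the difference over all samples was 5.15 with NT2 sample 7 and 4.17 without it.

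**Figure D3:**
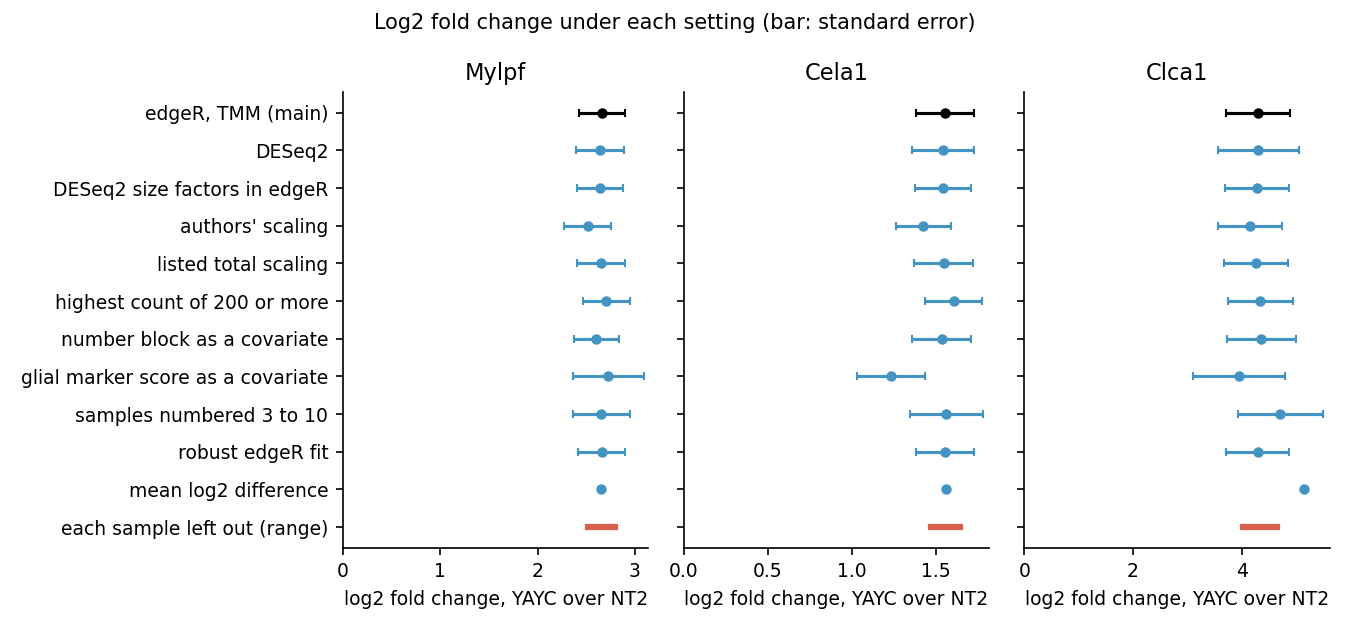
Log2 fold change of YAYC over NT2 (horizontal axes, starting at 0) for Mylpf, Cela1 and Clca1 under each setting, with the standard error as a bar where the fit gives one and the range over the fits that leave out 1 sample as a red line. Mylpf stays between 2.51 and 2.80, Cela1 lies lowest with the glial marker score (1.23), and Clca1 lies highest as a difference of mean log2 values (5.15).

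Other genes of skeletal muscle were few in the table, and those listed were mostly higher. Of 53 skeletal muscle genes 5 were listed, with a median log2 fold change of 0.94 against -0.13 for all listed genes. Up-regulation was called in 4 of the 5, and in 40.7% of the whole table. Tnni1, the slow skeletal troponin I, rose from 483 ± 149 (SD, n = 6) to 915 ± 177 (SD, n = 5) normalized counts, or by 0.92 on the log2 scale (standard error 0.22). The other 3 were low. Tnnt1, the slow troponin T, went from 20.6 ± 12.9 to 40.6 ± 15.0 and Neb, the nebulin of thin filaments, from 30.2 ± 18.4 to 57.7 ± 14.7. Pvalb, a calcium buffer of fast muscle and of a class of striatal interneurons, went from 5.19 ± 3.90 to 20.2 ± 9.67 (SD, n = 6 and 5). The NT2 and YAYC ranges overlapped in all 4 genes called up-regulated, with 305 to 657 against 646 to 1108 for Tnni1. Ldb3, a Z-disc protein, stood at -0.91 on the log2 scale (standard error 0.43) and was not called, but was called down-regulated with the authors' scaling (-1.05). The fast troponins, the skeletal actin and the skeletal myosin heavy chains, with which Mylpf works in fast fibres, were not analysed here. Of 15 other light chains, light chain kinases and phosphatase subunits, 0 were in the table.

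The listed smooth muscle genes did not follow Mylpf. Of 15 smooth muscle and mural genes 5 were listed, 3 were called down-regulated and 0 up-regulated. Myh11, the smooth muscle myosin heavy chain, fell from 276 ± 124 (SD, n = 6) to 102 ± 61.3 (SD, n = 5) normalized counts, or -1.43 on the log2 scale (standard error 0.41). Rgs5 (-0.79) and Notch3 (-1.26) were called down-regulated as well, while Smtn (-0.32) and Abcc9 (-0.39) were not called. Rgs5 was also counted among the vascular markers above. With the authors' scaling Smtn was called down-regulated too. The summed normalized count of the 5 genes was 1187 to 2305 in NT2 and 868 to 1252 in YAYC samples.

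Digestive and secretory genes were scarcer still. Of 32 pancreatic acinar genes 1 was listed and called up-regulated. Bhlha15, a transcription factor of secretory cells, had at most 3.10 normalized counts in NT2 and at most 14.9 in YAYC samples, with overlapping groups. Of 36 mucosal secretory genes 3 were matched by symbol, and all 3 were called up-regulated, against 40.7% of all listed genes. The first was the Clca2 row, which is Clca3a2 today, entered the list by its older symbol and shares sequence with the Clca1 row. The others were Scgb3a1, a secretoglobin of airway epithelium, and the mucin Muc4. Scgb3a1 rose from 10.1 ± 4.99 (SD, n = 6) to 94.2 ± 41.5 (SD, n = 5), or by 3.18 on the log2 scale (standard error 0.45), and its groups did not overlap (4.65 to 16.2 against 27.6 to 131). Muc4 had no more than 2.60 normalized counts in NT2 and 2.85 to 9.55 in YAYC samples.

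Among proteases and protease inhibitors, the class to which Cela1 belongs by its enzyme activity, 6 of 32 genes were listed. Of these, 5 were called up-regulated and 1 down-regulated, against 40.7% and 25.9% of all listed genes. The serine protease Klk6, which is known from oligodendrocytes, rose from 5490 ± 3805 (SD, n = 6) to 24119 ± 7916 (SD, n = 5) normalized counts, or by 2.14 on the log2 scale (standard error 0.42). Klk8, a serine protease of neurons also called neuropsin, had 1.72 (standard error 0.42). The serine protease inhibitors Serpina3n, which is known from reactive astrocytes, and Serpina3g had 2.12 and 2.33, and the metalloprotease inhibitor Timp1 had 1.81. Htra1, a secreted serine protease, fell by 0.89 on the log2 scale (standard error 0.26). Of the genes called up-regulated, Klk6 (1839 to 12599 against 11793 to 32929), Klk8, Serpina3g and Timp1 had overlapping groups. The groups of Serpina3n, like those of Cela1, did not overlap (1101 to 5902 against 8906 to 16128).

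Of 11 NF-Y subunits and factors named as C/EBP, NFI or Sp family members, 4 were listed. Cebpd (log2 fold change 0.51), Ddit3 (0.48) and Nfic (0.38) were called up-regulated, against 40.7% of all listed genes, and Nfyc was not called. With the authors' scaling Nfic was no longer called (0.25). All lists describe genes that had been selected by their difference between the 2 groups, and their counts are not evidence about the tissues that the lists are named for.

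**Figure D4:**
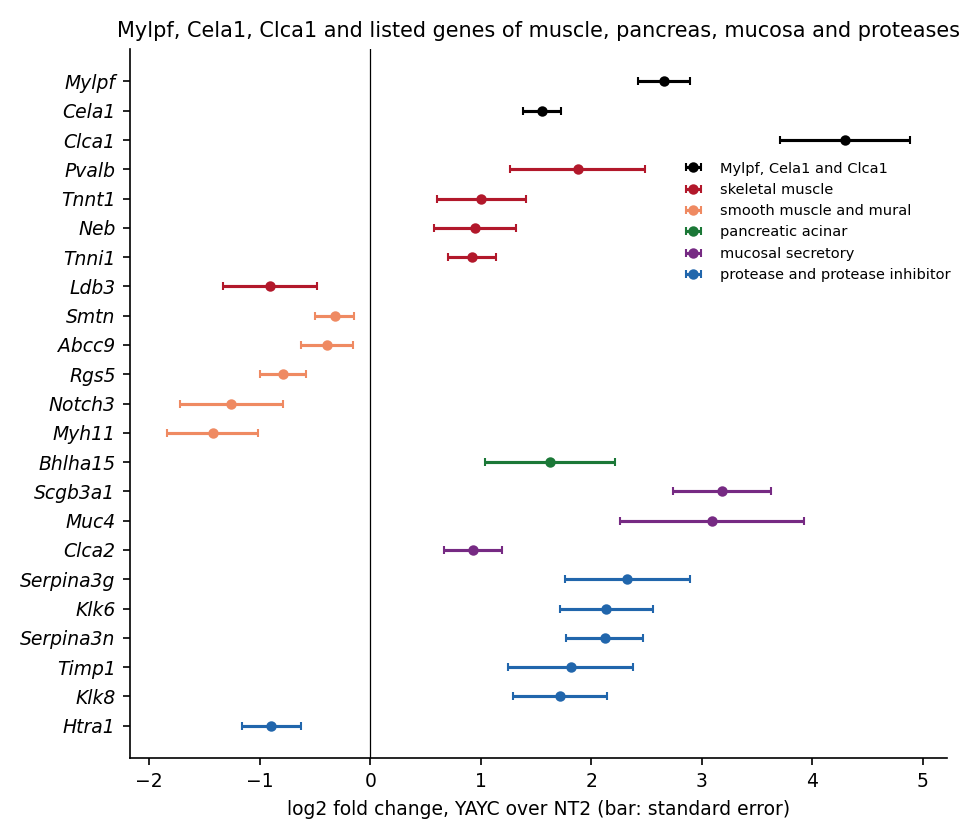
Log2 fold change of YAYC over NT2 (horizontal axis, standard error as bars) of Mylpf, Cela1 and the Clca1 row and of the listed genes of skeletal muscle, smooth muscle, pancreas, mucosa and proteases with their inhibitors, coloured by list. Clca1 (4.30) lies farthest to the right, and the 5 smooth muscle and mural genes lie to the left of 0.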

How the data were processed

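RNA was sequenced from sorted EmGFP-positive striatal cells as single reads of 50 bases after cDNA amplification. Reads were counted in Strand NGS by the authors, who deposited estimated counts without normalization, some of them fractional, for genes with a deposited p-value under 0.05. The deposited log2 values had been scaled for each sample and set to a median of 0 for each gene, and served here to recover the scaling. The submitters' processing notes name mm9, and the annotation is not given in the sources used here. The table's p-value and fold change columns hold the authors' own comparison and were not used, except to check that no listed gene had a p-value of 0.05 or more. Which samples belong to which group was taken from the sample titles. Within groups, chi-square per degree of freedom over the 25 pairs was 21.4 to 170, so that no sample was taken as a repeat of another.

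Estimated counts were rounded and fitted over all 1767 genes with edgeR 4.0.16 (R 4.3.3), with TMM normalization, glmQLFit and glmQLFTest and no covariate. The unit drawn is the estimated count divided by the TMM factor relative to the geometric mean. Calls required p below 0.05 before adjustment and more than 1.2-fold change. TMM assumes that most genes do not change, which a table selected by p-value does not meet. The alternatives were DESeq2 1.42.0, other scalings, a minimum of 200 for the highest count, covariates and left-out samples. The glial marker score is the mean over the 7 listed astrocyte, oligodendrocyte and microglia markers. Each marker's mean log2 value over the samples was subtracted from its log2 values first. Windows of 50 bases and transcript lengths came from GENCODE M21, and edlib 1.3.9.post1 aligned the Clca transcripts. The table gives no total read number per sample, so the precision of a gene was judged by its own counts. The 3 genes and all gene lists were chosen with earlier results of these data known. A few list genes and a promoter are not reported here. By rule, the genes named are the 3 genes, those most like them, their nearest listed neighbours and members of the gene lists that are in the table, while most cell type markers are given as sums. Genes next to the 3 in GENCODE M21 or sharing windows with them are named from that annotation and were chosen after its content was seen.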

Additional observations from a re-analysis of the deposited data

Results flagged for a closer look

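Among 30 named genes in 2 groups each, 6 groups held a sample far from the rest by Dixon's criterion. Chance alone gives such a sample in about 1 in 20 of the 60 groups tested. None of the 6 groups concerned Mylpf, Cela1 or Clca1. In NT2 samples, Klk8 reached 977 normalized counts in sample 3 where the next sample had 414, and Tnnt1 reached 46.5 in the same sample where the next had 17.8. Neb reached 66.9 in NT2 sample 5, where the next had 27.9. Muc4 had 2.60 in NT2 sample 7 and 0 in the other NT2 samples. In YAYC samples, Serpina3g was 28.6 in sample 4 where the next lowest had 139, and Dip2b was 2589 in sample 6 where the next lowest had 3274.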

How the results depend on the processing

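The direction of the 3 genes, which were picked for their rise, was the same under all alternatives run. Mylpf moved by less than the spread between samples under all 21, from 2.51 to 2.80, and Clca1 under all 23, from 3.06 to 5.15, where its own spread is wide because of the NT2 sample at 0. Cela1 did so under 20 of 21 and was 1.23 when the glial marker score entered the fit. The addition of Clca1 and Clca2 and the log-scale value without NT2 sample 7 were chosen after seeing the data. The number of genes called up-regulated was 720, and it was 471 with a minimum of 200 for the highest count and 332 with the glial marker score. The number called down-regulated was 457, and it was 294 and 176 in the same order and 832 with the authors' scaling. Within a tolerance of 0.05 the share of fractional counts was 0% for Mylpf and 9.09% for Cela1. With each sample left out in turn, Mylpf was 2.52 to 2.80, Cela1 1.47 to 1.64 and Clca1 4.03 to 4.66, with 672 to 712 genes called up-regulated and 381 to 488 down-regulated. Fewer genes enter the fit with the count minimum, and the cause of the other changes was not tested. No paired analysis was made, because the groups share no sample number and the labels do not say whether any samples were paired. Fold changes of the Clca1 row rest on 0 to 69.5 counts per control sample.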
